A study of Mus musculus with 4 samples.

Results

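Solute carriers are membrane proteins that move amino acids, sugars, ions, metals, lipids and metabolites across the plasma membrane and the membranes of organelles. Every gene symbol in the deposited tables made of Slc and a digit was taken, which gave 185 of 11754 symbols. A pair of macrophage metal carriers, among them the iron exporter Slc40a1, was left out because they belong with the genes of iron handling. Levels of the 185 symbols come from SAGE (serial analysis of gene expression), a count of short sequence tags, in alveolar macrophages, the phagocytes that live in the air spaces of the lung. All mice were wild-type (WT) BALB/c. One group was untreated and without lung metastasis, and the other had lung metastases 21 days after BNL cells, from a hepatocellular carcinoma of the mouse, were injected into a vein. Each group had 2 libraries, and the labels do not say whether they came from separate mice or pools, so a p-value here covers no more than how far these libraries lie apart, which may be technical. No sham injection is named for the untreated mice, and effects of the injection and of the metastases cannot be told apart.

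Macrophages take up protein, lipid, haem and nucleic acids from what they engulf, and carriers of the lysosome release the products to the cytosol. The plasma membrane carriers supply glucose, glutamine, cystine, taurine and arginine, and export lactate. Members of the Slc25 family sit in the inner mitochondrial membrane and exchange nucleotides, phosphate, dicarboxylates and other metabolites with the matrix. Several carriers work only with a partner: Slc3a2, the heavy chain of CD98, brings amino acid exchangers of the Slc7 family to the surface, and basigin does so for lactate carriers.

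The 516 tags of these genes are the raw data, and 277 of them had counts. A tag is the 21 bases that follow CATG, the site cut by the enzyme NlaIII, and by design it comes from the last such site before the poly(A) tail. A handful of tags is printed here because the results turn on them, with CATG in capitals. The first pair is the most abundant tag of the study's solute carriers, Slc25a11, and the main tag of Slc3a2, followed by those of Slc6a4, Slc27a1 and Slc9a7, the genes with the smallest p-values beside Slc3a2.
Slc25a11: CATGgtcccaggactagtgtgccag
Slc3a2: CATGcactgtcttcctcacctgacc
Slc6a4: CATGaatacataaaccacctaagag
Slc27a1, coding sequence: CATGggtgtggggcagtgcgtcatc
Slc27a1, 3′ UTR: CATGtcagctgggagacacgcgcag
Slc9a7: CATGggagctgtaactggtgttgtt

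Each tag of this group matched transcripts of 1 gene in GENCODE M21 (build GRCm38), on the sense strand. That of Slc25a11 lay at chr11:70644736-70644760, in the 3′ UTR of exon 8 of 8, and that of Slc3a2 at chr19:8707977-8708001, in the coding sequence of exon 9 of 9. That of Slc6a4 lay at chr11:77032051-77032075, in the 3′ UTR of exon 15 of 15. These were all at the last NlaIII site of the transcript. The Slc27a1 tags lay at chr8:71580774-71580798, in exon 8 of 14 at the tenth site from the 3′ end, and at chr8:71586471-71586495, in exon 14. The Slc9a7 tag lay at chrX:20164939-20164963, in the coding sequence of exon 7 of 17, at the ninth site from the 3′ end.

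The tags also set limits on what a symbol means. The next set shows why 3 abundant or tested symbols, Slc7a14, Slc22a15 and Slc35d2, may stand for other transcripts.
Slc7a14: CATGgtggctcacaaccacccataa
Slc22a15: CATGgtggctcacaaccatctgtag
Slc35d2: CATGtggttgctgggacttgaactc

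The tag deposited as Slc7a14 matched transcripts of 17 genes on the sense strand, that of Slc22a15 transcripts of 6, and that of Slc35d2 transcripts of 13. The first 18 of 25 bases were the same in the tags of Slc7a14 and Slc22a15, which are genes of different families. The tag of Slc7a14 was at chr3:31206312-31206336 in the 3′ UTR of that gene and held 98.6% of its counts. Levels given for these 3 symbols are therefore levels of a tag, not of a gene. Slc39a7 is the last tested symbol of this kind, with a main tag that matched 2 genes.

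A further pair of tags shows that the method can separate close relatives. Slc25a4 and Slc25a5 encode ADP/ATP carriers of the mitochondrion, and each has an NlaIII site in exon 2.
Slc25a4: CATGccagcaaacagatcagtgcag
Slc25a5: CATGccagcaagcaaatcacggcag

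These tags had the same base at 21 of 25 positions and differed at 4, and they lay at chr8:46209478-46209502 and chrX:36796849-36796873. The tag of Slc25a4 matched 1 gene. The tag of Slc25a5 matched 3, the other two being Gm5560 and Slc25a5-ps, so the counts of Slc25a5 at this site cannot be told apart from those.

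The libraries held 1783814 and 1630776 tags on day 21 and 1962569 and 2198563 in untreated mice, and solute carriers took 0.491% to 0.648% of them. No tag has a count of 1, so a tag read once is listed at 0. Of the alveolar macrophage markers, 12 of 13 had counts, with a summed level of 1892.2 and 4487.9 CPM on day 21 and 1256.8 and 2946.8 CPM in untreated libraries. The sum hides a mixed list: of 11 tested, 4 were higher and 7 lower on average on day 21, with a median log2 change of -0.52. None was called, and before adjustment 1 was higher (Chil3) and 2 lower (Krt79 and Plet1) at p under 0.05 (quasi-likelihood test of edgeR). Over all genes tested 3.52% were higher and 2.11% lower at that unadjusted p. CPM are counts scaled to 1000000 per library, with TMM factors. Siglecf and Chil3 were among those with counts, under the older symbols Siglec5 and Chi3l3, while Fabp4 was at 0 and Marco had 2 counts in 1 untreated library. Of the 10 markers of monocyte-derived and interstitial macrophages, 9 had counts and 6 were tested. All 6 were above 0 on the log2 scale. At an adjusted p under 0.05 (edgeR) 5 were called higher, against 0.671% of all genes tested. The list summed to 2144.9 and 3244.4 CPM on day 21 against 49.8 and 111.3 CPM. Its last gene, Cx3cr1, was not analysed here. The lung epithelium list summed to 48.3 and 66.5 CPM on day 21 and 166.9 and 345.6 CPM in untreated libraries. Of its 3 tested genes 1, Tppp3, was called lower, against 0.0671% of all genes tested. Of its 14 genes 4 had counts, 5 were at 0 (Sftpa1, Krt8, Krt18, Cdh1 and Foxj1), and the other 5, with Sftpc, Sftpb and Sftpd, were not analysed here. Of the lymphocyte markers 6 of 10 could be looked up and were at 0. Of the 10 neutrophil markers 7 could be looked up and 5 had counts, with sums of 75.5 and 278.2 against 9.27 and 157.6 CPM. The part of these other cells in any result below was not tested, and in bulk libraries fewer cells of a type and less RNA per cell cannot be told apart.

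Of the 185 symbols, 117 had counts in at least 1 library, 48 passed the filter on low counts and were tested, and 68 were listed at 0 throughout. Levels were unequal: 7 members had a mean of at least 100 CPM over the 4 libraries, 33 at least 10 and 78 at least 1. SAGE is meant to count a transcript once whatever its length, so levels were not divided by length. As 60 members had several counted tags, the order of genes by level is approximate. The members at 0 had a median of 1 listed tag. With 1 listed tag, a true mean of 4.74 counts would still give 0 or 1 reads in a library with a probability of 5%. In single libraries that mean is 2.16 to 2.91 counts in 1000000, so low expression was not detectable at this depth. Such limits cover counting error only, since PCR copies were not told apart.

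**Figure D1:**
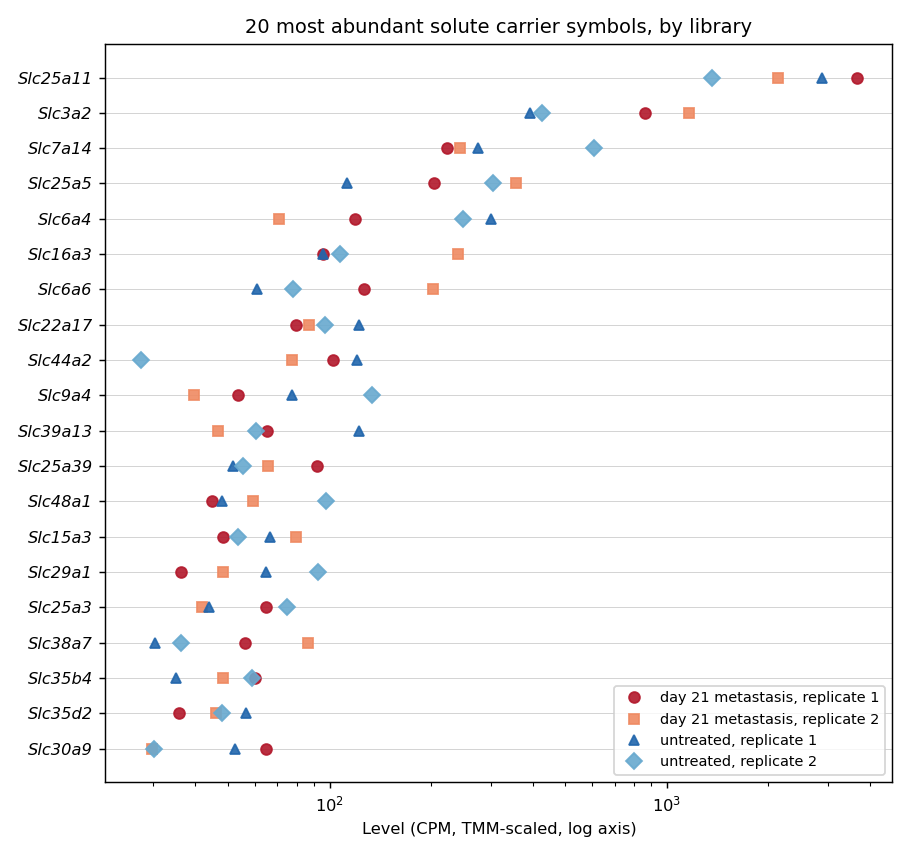
Level of the 20 most abundant solute carrier symbols in each of the 4 libraries, in CPM on a log axis. Slc25a11 is highest in all 4. Both day 21 libraries lie above both untreated ones for Slc3a2, Slc6a6, Slc25a39 and Slc38a7. Both lie below for Slc6a4, Slc7a14, Slc22a17, Slc9a4, Slc29a1 and Slc35d2.

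No solute carrier passed the test between day 21 metastasis and untreated libraries (0 higher and 0 lower of 48 at an adjusted p under 0.05, quasi-likelihood test of edgeR, Benjamini-Hochberg). Over all 2979 genes tested, 0.671% were called higher and 0.0671% lower. Before adjustment 4 members had p under 0.05, Slc27a1 and Slc3a2 higher and Slc6a4 and Slc9a7 lower, or 4.17% in each direction, against 3.52% of all genes higher and 2.11% lower. DESeq2 and limma-voom also called 0 members, each with 5 at an unadjusted p under 0.05. In 10 members both day 21 libraries lay above both untreated ones, and in 10 they lay below, against 15.2% and 16.0% of all genes. The log2 change, day 21 minus untreated, was above 0 for 29 members and below 0 for 19. Of all genes, 45.6% were above and 54.4% below. The median was 0.20 for the members and -0.07 over all genes. Scaled by total counts alone the medians were -0.05 and -0.29, and without day 21 metastasis replicate 2 they were -0.05 and -0.08. The 48 tested members are those with enough counts, so these medians do not speak for all 185. In simulated data for this comparison with 50 genes changed at each size, 4% were recovered at 2-fold and 16% at 4-fold. At 8-fold 58% were, and at 16-fold 90%, and 4 unchanged genes were called. Every simulated gene had 1 common dispersion (spread between libraries beyond counting), so recovery for genes of wider spread was not tried. Changes under 4-fold, as in nearly all members, were thus mostly beyond this test.

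**Figure D2:**
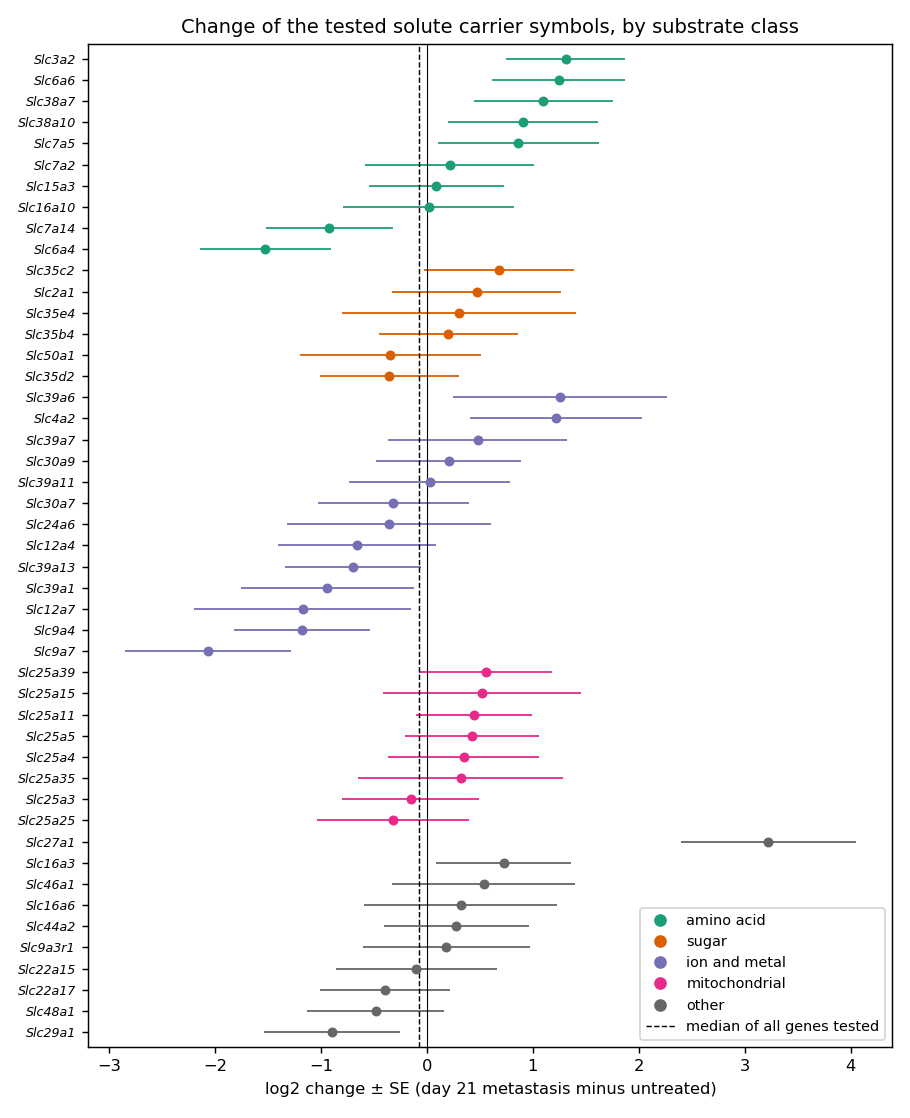
Log2 change, day 21 metastasis minus untreated, with its standard error, for 47 of the 48 tested solute carrier symbols, grouped by substrate class. The dashed line is the median of all genes tested (-0.07), and Slc27a1 at 3.22 and Slc9a7 at -2.07 lie farthest out.

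The largest difference was in Slc27a1, the fatty acid transport protein FATP1, which moves long-chain fatty acids into cells. It had 30 and 42 counts in the day 21 libraries against 5 and 6, or 17.0 and 29.7 against 2.44 and 2.44 CPM. Both day 21 libraries were thus well above both untreated ones. The log2 change was 3.22 ± 0.83 (SE), a fitted fold of 9.34, and p was 0.000651, or 0.0718 adjusted (quasi-likelihood test of edgeR). It passed under 4 of 14 alternatives, among them relative log expression scaling (adjusted p = 0.0459), no filter on low counts (0.0319) and leaving out untreated replicate 2 (0.0462), and did not pass with total counts (0.292) or limma-voom (0.627). Over all 14 alternatives the adjusted p ran from 0.0300 to 0.9999, the highest without day 21 metastasis replicate 2. Leaving out 1 library at a time gave log2 changes of 2.81 to 3.63. Markers of monocyte-derived and interstitial macrophages moved with it (sums above), and their part in it was not tested.

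The difference in Slc27a1 came from several tags, not 1. All 5 listed tags had counts, each matching Slc27a1 alone. None was at the last NlaIII site of the transcript Slc27a1-201, and the main 3′ UTR tag was at site 2 from the 3′ end. The tag in exon 8 had 16 and 22 day 21 counts against 0 and 3 untreated ones, and the main 3′ UTR tag had 8 and 13 against 5 and 3. The remaining 3, at chr8:71586287-71586311, chr8:71586140-71586164 and chr8:71585365-71585389, were seen only on day 21, with 0 to 3 counts each per library. Slc27a4, a related fatty acid carrier chosen here after its values were seen, had 0 and 0 day 21 counts against 4 and 3 untreated ones and was below the filter.

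**Figure D3:**
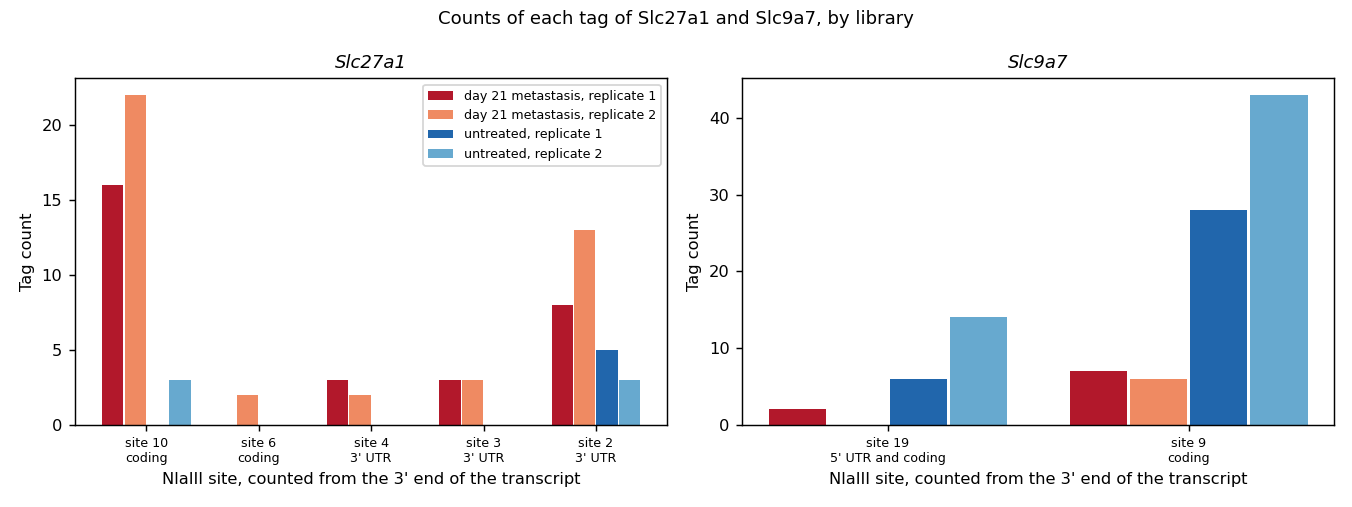
Counts of each counted tag of Slc27a1 (left) and Slc9a7 (right) in the 4 libraries, with tags placed by their NlaIII site counted from the 3′ end of the transcript. Slc27a1 has 16 and 22 day 21 counts at site 10, and Slc9a7 has 28 and 43 untreated counts at site 9.

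Amino acid carriers formed the class with the highest median. Of 33 members 19 had counts and 10 were tested. The log2 change was above 0 in 8 of these, its median was 0.54, and 0 passed. The median was -0.15 without day 21 metastasis replicate 2 and 1.15 without untreated replicate 2. In 4 of the 10 both day 21 libraries were above both untreated ones, and in 2 they were below, against 15.2% and 16.0% of all genes tested. Slc3a2, the shared heavy chain CD98, was at 862.0 and 1165.7 CPM on day 21 and 392.4 and 425.2 CPM in untreated libraries. The groups did not overlap, the log2 change was 1.31 ± 0.56 (SE), and the adjusted p was 0.725 (unadjusted 0.0284). Slc3a2 took 43.0% of the counts of its class. The class summed to 1519.6 and 1990.9 against 1176.8 and 1529.5 CPM, and without Slc3a2 to 657.6 and 825.3 against 784.3 and 1104.2 CPM, with overlap in both cases. These sums hold the tag of Slc7a14, which matches many genes. Without it, a choice made after seeing the data, the class summed to 1297.0 and 1747.5 against 901.5 and 922.7 CPM, with no overlap. Without Slc3a2 as well, the sums were 435.0 and 581.8 against 509.1 and 497.5 CPM and overlapped.

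The tags of Slc3a2 did not all have the same order of groups. The tag at the last site of the full-length transcript, printed above, had 1422 and 1503 day 21 counts against 662 and 937 untreated ones. A second tag, at chr19:8713460-8713484, is at the last site of a shorter transcript, Slc3a2-208. It had 83 and 118 counts against 136 and 99, and its share of the gene's counts was 5.47% and 7.16% on day 21 and 16.9% and 9.46% in untreated libraries. The share was lower in both day 21 libraries. Neither this difference nor which transcript the tag was read from was tested.

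The light chains that pair with Slc3a2 had far fewer counts than the heavy chain. Slc7a5, the large neutral amino acid exchanger LAT1, had 40 and 20 day 21 counts against 31 and 13 untreated ones, with a log2 change of 0.86 ± 0.76 (SE, adjusted p = 0.998, edgeR). The others were below the filter and were picked for their role: Slc7a8 (LAT2) had 8 and 17 counts against 0 and 4, Slc7a11, the cystine-glutamate exchanger xCT, 7 and 6 against 5 and 16, and Slc7a7 2 and 2 against 0 and 3. Slc7a6 was at 0. With no filter on low counts the log2 change of Slc7a8 was 3.19 ± 1.01 (SE), and its adjusted p of 0.151 (edgeR) was the second smallest of the 117 members with counts.

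Slc6a6, the taurine transporter, was at 126.6 and 203.1 CPM on day 21 and 61.0 and 78.0 CPM in untreated libraries. All day 21 values were above all untreated ones, and the log2 change was 1.24 ± 0.63 (SE, adjusted p = 0.923, edgeR). It had the most counted tags of the family, 15 of 18 listed. Of the 6 with at least 20 counts, 4 were higher in both day 21 libraries and 2 overlapped. Its main tag, with 53.3% of its counts, lay at chr6:91755067-91755091, early in a long 3′ UTR at the site numbered 18 from the 3′ end. The tag at the last site, chr6:91758479-91758503, held 7.50%.

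**Figure D4:**
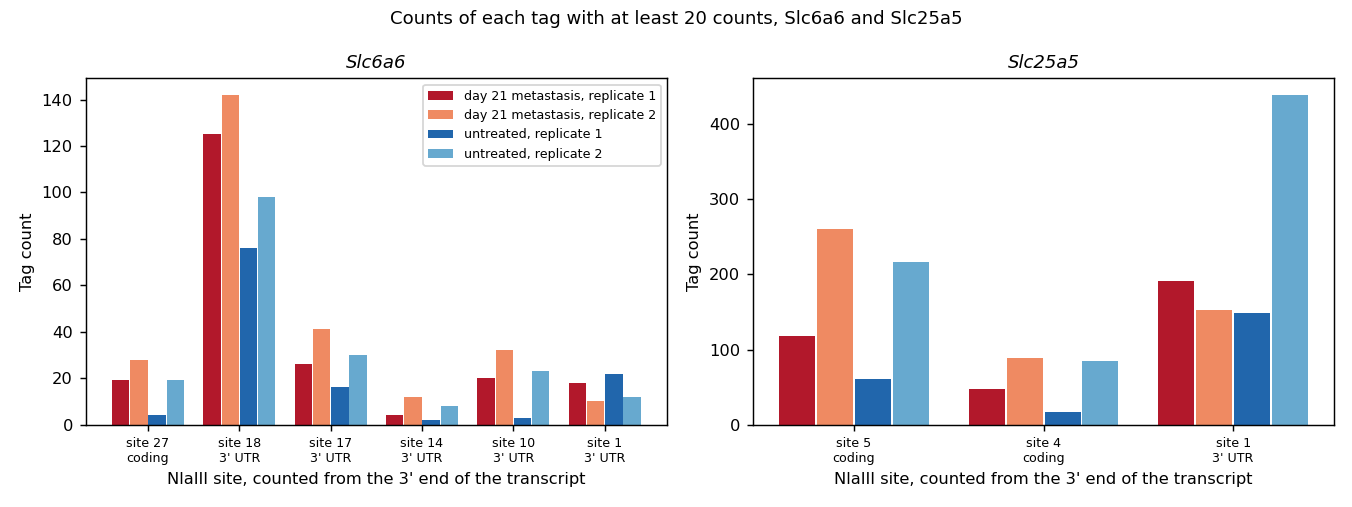
Counts of each tag with at least 20 counts of Slc6a6 (left) and Slc25a5 (right) in the 4 libraries, placed by NlaIII site from the 3′ end. Slc6a6 has its highest count at site 18 in all 4 libraries. Slc25a5 has its highest at site 1 in 3 libraries, up to 439 counts in untreated replicate 2, and at site 5 in day 21 metastasis replicate 2 (261 counts).

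Slc38a7, a lysosomal glutamine exporter, was at 56.2 and 86.3 CPM on day 21 and 30.3 and 36.1 CPM in untreated libraries (log2 change 1.10 ± 0.66 SE, adjusted p = 0.998, edgeR). All 3 of its tags with at least 20 counts were higher in both day 21 libraries. Its relative Slc38a10 was at 27.8 and 46.0 against 12.7 and 26.4 CPM, also without overlap. Slc15a3, a lysosomal carrier of histidine and small peptides, was at 48.3 and 79.3 against 66.4 and 53.6 CPM, with overlapping groups. Slc7a2, a carrier of arginine known from macrophages, was at 5.68 and 30.4 against 8.79 and 21.9 CPM, and each group held a low and a high library.

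Only 2 tested members of this class were lower on average. Slc6a4, the serotonin transporter, was placed here by its family. It was at 119.3 and 70.8 CPM on day 21 and 300.2 and 248.1 CPM in untreated libraries, a log2 change of -1.53 ± 0.62 (SE, adjusted p = 0.656, unadjusted 0.0209, edgeR). Both day 21 libraries lay below both untreated ones, and leaving out 1 library gave -1.90 to -1.17. Its printed tag held 95.2% of its counts. Markers of lung epithelium were lower in the same libraries (sums above), in 3 of 3 tested genes. Of 11 tested alveolar macrophage markers 7 were also below 0 on the log2 scale and 4 above. The part of either list in this difference was not tested. The tag deposited as Slc7a14 was at 222.6 and 243.5 against 275.3 and 606.7 CPM (log2 change -0.92 ± 0.60 SE, adjusted p = 0.998). With tags of several genes left out, Slc7a14 was no longer among the tested genes, and the median of the class was 0.87.

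Ion and metal carriers were the 1 class with a negative median, -0.51. Of 51 members 33 had counts and 14 were tested, 5 of them above 0 and 9 below on the log2 scale, and 0 passed. In 5 of the 14 both day 21 libraries were below both untreated ones, and in 1 (Slc4a2) they were above. Over all genes tested 16.0% were below and 15.2% above in this way. The summed level of the class was 326.0 and 244.2 CPM on day 21 and 454.4 and 375.3 CPM in untreated libraries, which do not overlap. Without Slc9a4, which held 23.0% of these counts, the sums were 272.6 and 204.5 against 377.3 and 241.6 CPM and did overlap. The median was -0.09 without untreated replicate 1 and -0.20 without day 21 metastasis replicate 2.

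A pair of sodium-proton exchangers of the Slc9 family had the most negative log2 changes of the class. Slc9a7, which works in the Golgi, had 9 and 6 day 21 counts against 34 and 57 untreated ones. The log2 change was -2.07 ± 0.78 (SE, adjusted p = 0.540, unadjusted 0.0141, edgeR), and leaving out 1 library gave -2.28 to -1.78. Its 2 counted tags were both lower in both day 21 libraries, with 7 and 6 against 28 and 43 counts in exon 7 and 2 and 0 against 6 and 14 in exon 1. Neither is at the last NlaIII site. Slc9a4, known from the stomach and kidney, was at 53.4 and 39.6 against 77.1 and 133.6 CPM, and 3 of its 3 tags with at least 20 counts were lower in both day 21 libraries (log2 change -1.18 ± 0.64 SE, adjusted p = 0.955). The scaffold proteins Slc9a3r1 and Slc9a3r2 and the neighbour gene Slc7a6os carry such symbols but are not carriers, and were counted with the other substrates.

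The zinc carriers belong to the families Slc39 and Slc30. Among the ZIP proteins of Slc39, which bring zinc into the cytosol, Slc39a13 was at 65.3 and 46.7 CPM on day 21 and 122.0 and 60.5 CPM in untreated libraries, with overlapping groups (log2 change -0.70 ± 0.64 SE). It has NlaIII sites that adjoin each other, so its main tags overlap and are shown together.
Slc39a13, second site from the 3′ end: CATGcatgccccaggcagagacagt
Slc39a13, last site: CATGccccaggcagagacagtgagc

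The first lay at chr2:91062113-91062137 with 64.3% of the counts of the gene and the second at chr2:91062109-91062133 with 22.9%, both in the 3′ UTR of exon 10. Slc39a1 had 6 and 10 day 21 counts against 15 and 31 untreated ones, without overlap in CPM. Slc39a6 had 8 and 21 against 0 and 19 counts, and its log2 change of 1.26 ± 1.01 (SE) was 7.09 without untreated replicate 2, which leaves the untreated group at 0, and 0.23 without day 21 metastasis replicate 2. Slc39a7 had 7 and 17 against 8 and 18 counts. Of the ZnT family, the other family of zinc carriers, Slc30a9, a protein of mitochondria, was at 64.7 and 29.7 against 52.2 and 30.1 CPM. Slc30a7 was at 16.5 and 16.3 against 23.4 and 17.5 CPM. Slc30a1, the zinc exporter of the plasma membrane, Slc39a8 and Slc39a14 were listed at 0.

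Among carriers of other ions, Slc4a2 and Slc12a7 had groups that did not overlap. Slc12a7, a potassium-chloride cotransporter, had 2 and 6 day 21 counts against 12 and 15 untreated ones (log2 change -1.17 ± 1.02 SE, adjusted p = 0.998, edgeR). Its relative Slc12a4 was at 33.5 and 13.4 CPM on day 21 and 58.1 and 16.7 CPM in untreated libraries, so replicate 1 was above replicate 2 in each group. Its log2 change of -0.66 ± 0.75 (SE) was 0.50 without untreated replicate 1. Slc4a2, the chloride-bicarbonate exchanger AE2, was at 10.8 and 9.20 against 5.37 and 3.25 CPM, a log2 change of 1.21 ± 0.81 (adjusted p = 0.998, edgeR). Slc11a2, the iron and manganese carrier DMT1 and also a gene of iron handling, had 8 and 3 against 11 and 11 counts and was below the filter.

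Sugar carriers were few. Of 27 members 16 had counts and 6 were tested. The log2 change was above 0 in 4 and below 0 in 2, its median was 0.25, and 0 passed. The median was 0.01 without untreated replicate 1 and 0.80 without untreated replicate 2. Slc2a1, the glucose transporter GLUT1, had 16 and 11 day 21 counts against 9 and 19 untreated ones, or 9.09 and 7.79 against 4.39 and 7.72 CPM. The groups were separated only by 7.79 against 7.72 CPM, and the log2 change was 0.47 ± 0.80 (SE). It was the 1 tested glucose transporter of the Slc2 family: Slc2a8 had 9 and 8 against 0 and 4 counts, and Slc2a3, Slc2a4, Slc2a6, Slc2a9 and Slc2a10 were listed at 0. Slc37a2, a sugar phosphate carrier known from macrophages, had 13 and 4 against 3 and 0 counts. Slc2a8 and Slc37a2 were chosen after their values were seen and had unadjusted p of 0.0232 and 0.0193 with no filter (adjusted p = 0.830 and 0.762, edgeR).

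The nucleotide sugar carriers of the Slc35 family feed glycosylation in the Golgi and endoplasmic reticulum. Slc35b4, which carries UDP-xylose and UDP-N-acetylglucosamine, was at 60.2 and 48.1 CPM on day 21 and 35.1 and 58.9 CPM in untreated libraries. Slc35c2 was at 23.9 and 34.0 against 12.7 and 23.1 CPM, without overlap and with a log2 change of 0.68 ± 0.71 (SE). The tag deposited as Slc35d2 was at 35.8 and 46.0 against 56.6 and 47.9 CPM. Slc50a1, the one mammalian SWEET protein, had 8 and 9 against 9 and 23 counts, and its groups overlapped.

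**Figure D5:**
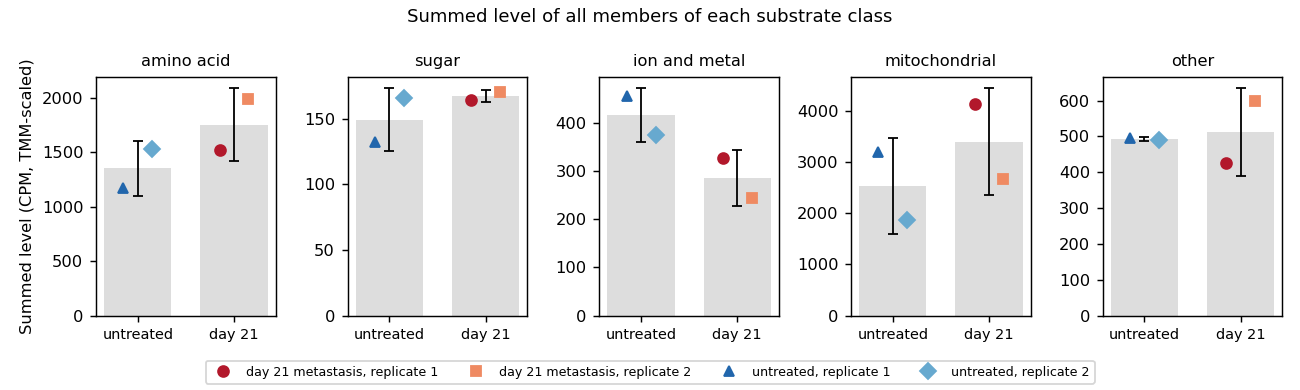
Summed level of all members of each substrate class, in CPM, with bars for group means, error bars for SD (n = 2) and a symbol for each library. The ion and metal class is at 326.0 and 244.2 CPM on day 21 below 454.4 and 375.3 CPM in untreated libraries. In each of the other 4 classes the groups overlap as drawn. The amino acid class does not overlap without the tag of Slc7a14 (1297.0 and 1747.5 against 901.5 and 922.7 CPM).

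Mitochondrial carriers held the most counts, because of 1 gene. Of 29 members of the Slc25 family 22 had counts and 8 were tested, 6 above 0 and 2 below on the log2 scale. Their median was 0.39, and 0 passed. Without day 21 metastasis replicate 1 the median was -0.08. Slc25a11, the exchanger of oxoglutarate and malate, held 84.5% of the counts of the class and 45.0% of those of all solute carriers. It was at 3656.6 and 2130.4 CPM on day 21 and 2888.9 and 1364.6 CPM in untreated libraries. Replicate 1 was above replicate 2 in each group and the groups overlapped (log2 change 0.44 ± 0.54 SE, adjusted p = 0.998, edgeR). Its printed tag held 99.5% of its counts. Without Slc25a11 the class summed to 471.9 and 527.3 CPM on day 21 and 308.0 and 503.6 CPM in untreated libraries.

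The ADP/ATP carriers, which exchange ATP made in the matrix for ADP, came next. Slc25a5 was at 203.3 and 358.1 CPM on day 21 and 112.3 and 305.4 CPM in untreated libraries, with a log2 change of 0.43 ± 0.63 (SE). With only the tag that matches 1 gene, at chrX:36798576-36798600 in the 3′ UTR, the sign turned (-0.24). That tag had 191 and 153 against 148 and 439 counts, and 53.4% and 30.2% against 64.3% and 58.4% of the counts of the gene. Slc25a4, its relative of muscle and heart, was at 34.1 and 19.1 against 14.6 and 27.2 CPM. In both genes the groups overlapped.

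Slc25a39, which brings glutathione into mitochondria, was at 91.4 and 65.8 CPM on day 21 and 51.7 and 55.2 CPM in untreated libraries. It was the 1 of 8 tested members of the class without overlap. Over all genes tested 15.2% were above and 16.0% below in this way. The log2 change of Slc25a39 was 0.56 ± 0.63 (SE, adjusted p = 0.998, edgeR). Slc25a3, the phosphate carrier, was at 64.7 and 41.8 against 43.9 and 74.7 CPM. Slc25a25, a carrier of ATP-magnesium and phosphate, was at 38.0 and 18.4 against 51.7 and 19.1 CPM. Slc25a1, the citrate carrier, had 9 and 7 against 0 and 4 counts and was below the filter, with an unadjusted p of 0.0327 without it (adjusted p = 0.923, edgeR). It was chosen after its values were seen. Of the mitoferrins, which bring iron into mitochondria and belong to iron handling too, Slc25a28 had 9 and 3 against 21 and 10 counts and Slc25a37 had 2 counts in 1 untreated library.

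The other substrates took in 45 members, of which 27 had counts and 10 were tested. Of these 6 were above 0 and 4 below on the log2 scale. Their median was 0.23, and 0 passed. The median was -0.22 without day 21 metastasis replicate 2 and also without untreated replicate 1. Slc16a3, the lactate exporter MCT4, was at 95.4 and 239.9 CPM on day 21 and 95.7 and 107.2 CPM in untreated libraries. One day 21 library was thus at the untreated level and the other above it (log2 change 0.72 ± 0.64 SE), and without day 21 metastasis replicate 2 the log2 change was -0.05. Bsg, the chaperone basigin, was at 3783.2 and 4783.8 against 3324.3 and 3248.6 CPM. Slc16a1, the lactate carrier MCT1, was listed at 0. The class without Slc16a3 summed to 329.9 and 358.1 CPM on day 21 and 401.2 and 381.8 CPM in untreated libraries, without overlap.

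Slc29a1, the nucleoside transporter ENT1, was at 36.3 and 48.1 CPM on day 21 and 64.9 and 92.2 CPM in untreated libraries, without overlap (log2 change -0.90 ± 0.64 SE, adjusted p = 0.998, edgeR). Of its 4 tags with at least 20 counts, 2 were lower in both day 21 libraries and 2 overlapped. Slc22a17, a receptor for lipocalin 2, was at 79.5 and 87.1 against 122.5 and 97.1 CPM, also without overlap. Slc44a2, a choline carrier-like protein, was at 102.2 and 77.1 against 120.6 and 27.6 CPM, so that its 2 untreated libraries were the highest and the lowest. Slc48a1, which moves haem out of the phagolysosome, was at 44.9 and 59.5 against 47.8 and 97.9 CPM. Slc46a1, a carrier of folate and haem, was at 7.38 and 6.37 against 5.86 and 3.66 CPM.

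Genes that serve solute transport and were deposited without a Slc symbol were read from the same fit. Of 65 such genes in 9 lists, 38 had counts and 30 were tested. On the log2 scale 21 were above 0 and 9 below, with a median of 0.33, against 45.6% above and a median of -0.07 over all genes. None was called (0 of 30), against 0.671% higher and 0.0671% lower of all genes. Before adjustment 3 were higher and 1 lower at p under 0.05, against 3.52% and 2.11% of all genes. These were all in the list of lysosomal exporters, of which 7 were tested. That list holds Pqlc1 and Pqlc2, which are carriers named Slc66a2 and Slc66a1 at present. By level the first 3 of the 65 genes were Bsg, Fth1, the ferritin heavy chain, and Fxyd5, a regulator of the sodium pump. Fth1 was at 3523.7 and 4389.6 CPM on day 21 and 1647.3 and 4472.7 CPM in untreated libraries. Fxyd5 was at 1186.3 and 2552.2 against 705.8 and 1808.9 CPM. Replicate 2 was above replicate 1 in each group for both genes.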

How the data were processed

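Tags were counted in 4 SAGE libraries of alveolar macrophages, grouped by the labels. The deposited values are raw counts of 21-base tags, each with a symbol, per the file headers. The labels' protocols name NlaIII and EcoP15I as the enzymes. The submitters' processing notes name build mm9. How tags were mapped and which low counts were dropped is not given in the sources used here. Counts were summed per deposited symbol and tested with edgeR 4.0.16 in R 4.3.3: quasi-likelihood, TMM scaling, filterByExpr (counts of at least 10, totals of at least 15), Benjamini-Hochberg over 2979 genes, threshold 0.05. DESeq2 1.42.0 and limma 3.58.1 (voom), other scalings, no filter, a robust prior, other naming, tags matching 1 gene, a replicate block and leaving out each library were the alternatives. Tags with CATG were matched to GENCODE M21 transcripts (GRCm38), the source of all coordinates. BALB/c sequence can differ from it. Libraries within a group were further apart than sampling of tags allows (chi-square divided by its degrees of freedom, 59.6 untreated and 44.3 day 21). Molecular identifiers are not given, so counts may hold PCR copies. The test was tried on simulated counts.

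The members, substrate classes and lists were chosen with earlier results of these data known. Classes follow the family number, with exceptions. Slc16a10 was placed with the amino acid carriers, and Slc6a8, Slc43a3 and Slc35f5 with the other substrates. Of these only Slc16a10 was tested, with a log2 change of 0.02, and it is in the median of the amino acid class. Slc9a3r1, Slc9a3r2 and Slc7a6os match the symbol rule without being carriers and stand with the other substrates. Named genes are members past the threshold and, in each class, the 4 tested members of highest level and up to 3 of smallest p in each direction. Of partner genes, the 3 of highest level are named, and Pqlc1 and Pqlc2 as renamed carriers. Other tested members (such as Slc7a5, Slc7a2, Slc38a10, Slc15a3, Slc30a7, Slc12a7 and Slc25a4), and members below the filter, were added for their role or after their values were seen. Marker and partner genes were looked up under older symbols through RefSeq (GRCm38.p6). The values of 1 tested member are not reported here, though it is in the counts, sums and medians.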

Additional observations from a re-analysis of the deposited data

How the results depend on the processing

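The count of solute carriers called was 0 lower under all 14 alternatives. It was 1 higher, Slc27a1, with relative log expression scaling, with no filter on low counts, with the replicate block and without untreated replicate 2 (0 to 1 with 1 library left out), and 0 under the other alternatives. With the replicate number as a block (replicate block), the log2 change of Slc27a1 was 3.20, its adjusted p was 0.0300 (edgeR), and 28 genes were called higher and 9 lower. Same-numbered libraries deviated together (r = 0.54 across genes, which are not replicates). Of the 48 tested members 77.1% lay on the same side of the mean in same-numbered libraries, against 68.9% of all tested genes. The labels do not say what a number marks, so this pairing is only a hint from the data. Over all genes 20 were called higher and 2 lower. The counts were 9 and 0 with total counts, 36 and 5 with no filter, 11 and 0 with tags matching 1 gene, 9 and 3 with limma-voom, 21 and 4 with DESeq2, 16 and 1 with the robust prior, 19 and 0 with upper-quartile scaling, and 9 to 63 and 0 to 18 with 1 library left out. The median log2 change of the tested members was -0.0517 with total counts, 0.30 with no filter and -0.0543 to 0.26 with 1 library left out. With 1 library left out the class medians ran from -0.15 to 1.15 (amino acid), 0.00778 to 0.80 (sugar), -0.48 to -0.0903 (ion and metal), -0.0792 to 0.73 (mitochondrial) and -0.22 to 0.20 (other, 0.00879 with total counts). The log2 ratio of the mean summed levels of the amino acid class was 0.38, and 0.74 with Slc7a14 left out, which was chosen after seeing the data. Signs turned for Slc25a5 with tags matching 1 gene (-0.24) and for Slc35b4 with total counts (-0.0218). With 1 library left out they turned for Slc12a4 (-1.42 to 0.50), Slc16a3 (-0.0543 to 1.29), Slc25a25 (-0.89 to 0.57), Slc25a3 (-0.48 to 0.30), Slc25a5 (-0.12 to 1.35), Slc30a9 (-0.42 to 0.69), Slc35b4 (-0.12 to 0.65), Slc39a7 (-0.47 to 1.14), Slc44a2 (-0.40 to 1.70) and Slc48a1 (-0.91 to 0.15). The cause was not tested.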

Other observations

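Solute carrier tags differed between libraries in where on the transcript they lay. The method is meant to read the last NlaIII site. Tags at the last site of any annotated transcript of their own gene, shorter ones included, were counted as read there. They held 85.9% and 77.3% of the counts of all members on day 21 and 84.9% and 67.5% in untreated libraries. Slc25a11 is read nearly all at that site. With it left out the shares were 68.6% and 64.1% on day 21 and 68.2% and 53.5% in untreated libraries. Over all tags of the study they were 84.6% and 77.9% on day 21 and 78.5% and 72.7% in untreated libraries. In Slc48a1 the tag at the last site of its main transcript held 12.7% and 2.38% of the gene on day 21 and 12.2% and 3.73% in untreated libraries. In Slc29a1 it held 64.1% and 35.3% on day 21 and 66.9% and 43.2% in untreated libraries. For both genes the libraries differed within each group by more than the group means did.

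Present RefSeq names give Slc symbols to 13 further deposited symbols, of which 9 had counts. The most abundant was Pqlc1, now Slc66a2, with 366 and 206 day 21 counts against 752 and 554 untreated ones. It was followed by 4930471M23Rik, now Slc35f6, with 35 and 44 against 33 and 46. Pqlc2, now Slc66a1, had 10 and 11 day 21 counts against 4 and 0. Its unadjusted p was 0.0312, and its adjusted p was 0.739 (edgeR).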
